A study of Mus musculus with 14 samples.

Results

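Among the single-cell transcriptomes of an untreated mouse liver, 54 of 4808 barcodes carried MHC class II transcripts together with the myeloid gene Lyz2, and almost none of the genes of Kupffer cells, the resident macrophages of the liver sinusoids. A barcode here is the tag that marks the RNA of 1 droplet, normally 1 cell. A barcode was a member when it had at least 200 genes, at most 20% mitochondrial UMIs, at least 10 UMIs summed over H2-Aa, H2-Ab1, H2-Eb1 and Cd74, at least 1 UMI of Lyz2, at most 1 UMI summed over Clec4f, Cd5l and Vsig4, no UMI of Cd79a, Cd79b, Siglech or Cd3e, and at most 1 UMI summed over Stab2 and Kdr. UMIs are molecular tags that count each captured RNA molecule once. The members made up 1.12% of the barcodes that passed the first 2 filters (exact binomial 95% interval 0.845 to 1.46%), and they are compared with the 4754 others.

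The study asks how the P2Y14 receptor, which senses UDP-glucose, connects dying hepatocytes with hepatic stellate cells, the vitamin A storing cells that lay down scar. The single-cell library (n = 1) came from perfused and digested liver of an untreated C57BL/6 mouse, made with the Chromium 3′ v2 chemistry. Bulk RNA-seq covered stellate cells of the Balbc strain treated in culture with 10 µM UDP-glucose for 24 h (n = 3) and untreated control cultures at 24 h (n = 3). It also covered unplated quiescent stellate cells (n = 4) and whole uninjured liver (n = 3), both of the strain LratCre+, TdTom+ in C57BL/6J, in which Cre under the Lrat gene marks stellate cells with the red protein TdTomato. The quiescent cells were sorted for vitamin A and TdTomato fluorescence. No sample had liver damage, and the labels used here give no ages and do not say whether the replicates came from separate animals, so bulk p-values measure no more than how these samples vary, and that variation may be technical.

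MHC class II molecules hold peptides from engulfed protein at the cell surface, where CD4+ T cells read them. The α and β chains pair in the endoplasmic reticulum with the invariant chain Cd74, proteases such as cathepsin S then trim Cd74 in endosomes, and H2-DM exchanges the remaining fragment for peptide. Dendritic cells, macrophages and B cells carry most of the class II protein. Liver holds several such myeloid cells beside Kupffer cells: conventional dendritic cells of type 1 (cDC1), known for cross-presentation to CD8+ T cells, those of type 2 (cDC2), known for priming CD4+ T cells, monocytes arriving from blood, and macrophages of the capsule and of the larger vessels.

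The library held 5063 barcodes with no repeated barcode, of which 255 failed a filter on genes or mitochondrial UMIs. Members had a median of 3560 UMIs (1007 to 10223) and 1342 genes, against 1969.5 UMIs (968 to 47577) and 1054 genes in the other barcodes. The median mitochondrial share was 3.36% in members and 4.60% in the others. In the next paragraphs, CPM is the pooled UMI count of a set of barcodes scaled to a fixed total of UMIs. Its bracketed range is an exact Poisson 95% interval, which, like the intervals on shares, covers counting error only. With 1 library there is no replicate, so single-cell differences have no test and are given by size.

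Other sets of barcodes were picked by their own genes for comparison: 298 Kupffer barcodes (at least 3 UMIs of Clec4f, Cd5l and Vsig4), 44 plasmacytoid dendritic barcodes, 216 B barcodes, 301 T barcodes and 2053 sinusoidal endothelial barcodes. The T set shared 2 barcodes with the members. Median depth was 1839.5 UMIs in the Kupffer set and 1928 UMIs in the endothelial set.

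Some members also carried RNA of a second cell type. No doublet caller was run, and markers of other types were counted instead. Of the 54 members, 7 had 58 to 219 UMIs summed over 6 stellate genes, 2 had 669 and 3311 hemoglobin UMIs, and 1 had 94 UMIs of 5 hepatocyte genes. The 44 remaining members had at most 10 stellate, 14 hemoglobin and 16 hepatocyte UMIs. Among the other barcodes, 5.45%, 2.65% and 9.61% passed the same limits for stellate, hemoglobin and hepatocyte UMIs, which include barcodes of those cell types themselves. These limits were set after the values were seen, and results below are given with and without the 10 mixed barcodes where they move.

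The class II genes and Lyz2 chose the members, so their levels are a description. Summed over the 4 class II genes, members had a median of 185.5 UMIs per barcode (10 to 583), against 1 UMI (0 to 501) in the other barcodes. The medians were 18 UMIs in the Kupffer set, 26 in the plasmacytoid set, 42.5 in the B set, 1 in the T set and 0 in the endothelial set. Most members thus lay far above the limit of 10, and 766 of the other barcodes (16.1%) also reached it. Cd74 stood at 24158 CPM in members and 1813 CPM in the other barcodes. H2-Aa, the α chain of I-A, was at 8445 CPM (8052 to 8853) in members and 553 CPM in the others, and its partner H2-Ab1 at 10521 and 605 CPM. H2-Eb1, the β chain of I-E, was at 6946 CPM in members and 437 CPM in the others, with a UMI in 52 of the 54 members. Levels of H2-Aa were 2008 CPM in the Kupffer set, 2302 CPM in the plasmacytoid set and 3767 CPM in the B set.

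Lyz2, the lysozyme gene of myeloid cells, had a median of 6 UMIs in members (1 to 149), against 0 in the other barcodes. Its pooled level was 4020 CPM in members, 3449 CPM in the Kupffer set, 53.4 CPM in the plasmacytoid set and 29.2 CPM in the B set. Near the limits, 5, 4 and 8 members had 1, 2 and 3 Lyz2 UMIs, and 21 barcodes missed membership only for want of Lyz2, with a median of 82 class II UMIs. A class II sum of 7 to 9 UMIs left out 3 barcodes, and a sum of 10 to 13 UMIs let in 2. Of the members, 41 had no UMI of the 3 Kupffer genes and 13 had 1, while 4 barcodes with 2 such UMIs and 2 with 3 were left out by that limit alone. Likewise 42 members had no UMI of Stab2 and Kdr and 12 had 1, while 4 barcodes with 2 and 4 with 3 were left out. In all, 230 barcodes missed only on the Kupffer genes, with a median of 24 class II UMIs, and 228 of them had at least 3 UMIs of the complement C1q genes.

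Class II genes of mammals are known to share promoter boxes, an X box bound by the RFX complex and a Y box, a reversed CCAAT element bound by NF-Y, over which the coactivator CIITA assembles. Because H2-Aa, H2-Eb1 and H2-DMb1 stood high together in the members, their start regions are printed, beside those of H2-Oa, H2-Ob and H2-DMb2, which were higher in the B set, with capitals marking AGCAAC, taken here as a core of the X box, and ATTGG, the core of the Y box. All lie on chromosome 17 of GRCm38.p6, upstream of the RefSeq gene start and read from the gene's strand, in RefSeq windows of 250 bases before to 50 after the start.
H2-Eb1, chr17:34305763-34305827, plus strand: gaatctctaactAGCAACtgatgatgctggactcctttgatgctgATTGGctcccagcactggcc
H2-Oa, chr17:34092291-34092355, plus strand: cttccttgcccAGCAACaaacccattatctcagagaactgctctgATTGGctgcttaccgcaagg
H2-Ob, chr17:34238803-34238867, plus strand: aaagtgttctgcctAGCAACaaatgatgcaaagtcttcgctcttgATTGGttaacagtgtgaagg
H2-Aa, chr17:34287852-34287916, minus strand: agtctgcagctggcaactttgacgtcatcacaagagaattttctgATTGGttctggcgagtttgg
H2-DMb1, chr17:34153085-34153149, plus strand: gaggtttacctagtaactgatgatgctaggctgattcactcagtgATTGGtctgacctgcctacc
H2-DMb2, chr17:34145114-34145178, plus strand: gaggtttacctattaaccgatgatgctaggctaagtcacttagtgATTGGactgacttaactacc

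H2-Eb1, H2-Oa and H2-Ob held AGCAAC followed by ATTGG 33, 34 and 31 bases on, counted between the first bases of the boxes. Their ATTGG began at -59, -43 and -57 from the gene start. H2-Aa, H2-DMb1 and H2-DMb2 held ATTGG, at -48, -61 and -90, without the exact letters AGCAAC at that spacing. H2-DMa also held ATTGG without the pair and is not printed. Of 11 class II genes looked for, 8 were in the table, and H2-Ab1, Cd74 and Ciita were not. All 8 held ATTGG on either strand, and 4 held the ordered pair at a distance of 20 to 50 bases (H2-Eb2 as well). Over all 32851 windows, 12289 (37.4%) held ATTGG on either strand, 4858 (14.8%) held AGCAAC, and 165 (0.502%) held the pair. The motifs do not overlap in the printed stretches, and a match in letters is a description, not a bound site.

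The other genes of the class II pathway were not used by the rule. Of 19 such genes, 17 had a UMI in members and 18 were abundant enough to be considered, 3 were at least 4-fold higher than in the other barcodes after 50 CPM was added to both levels, and 0 were that much lower. The same limit was passed upward by 0.17% of the 13555 genes considered and downward by 0.575%. The rule chose the barcodes from the same transcriptomes, so nothing is read from the count. The median log2 difference was 0.76 for the list and -0.07 for all genes. The 3 genes were H2-DMa and H2-DMb1, the chains of the peptide exchanger, and Ctss, cathepsin S. H2-DMb1 had 757 CPM in members (643 to 886), against 48.2 CPM in the others, and H2-DMa 938 and 87.1 CPM. Ctss had 1167 CPM in members and 210 CPM in the others, but 1608 CPM in the Kupffer set. H2-DMa was seen in 45 of the 54 members (83.3%), against 2.24% of the endothelial barcodes. Of the endothelial barcodes, 17 (0.828%) reached 10 class II UMIs themselves, so the 2.24% may hold more than free RNA.

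Among the other genes of the pathway, H2-DMb2 had 112 CPM in members and 774 CPM in the B set. H2-Oa and H2-Ob, which form the H2-DO inhibitor of H2-DM, had 103 and 44.0 CPM in members, against 332 and 593 CPM in the B set. Ciita, the master coactivator, had 10 UMIs in 7 members, or 48.8 CPM (23.4 to 89.8), against 5.69 CPM in the other barcodes. Genes of costimulation were sparse: Cd83 stood at 48.8 CPM in members and 11.3 CPM in the others, and Cd86 at 29.3 CPM in members, 12.7 CPM in the others and 112 CPM in the Kupffer set. Cd80 and Pdcd1lg2 had no UMI in members. Of the 16 genes of class I presentation, 0 passed the 4-fold limit in either direction, with a median log2 difference of 0.15.

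Across the genome, 23 genes were at least 4-fold higher in members than in the other barcodes and 78 were at least 4-fold lower. The 23 include H2-Aa, H2-Ab1, H2-Eb1, Cd74 and Lyz2, which the rule itself used. The cells were chosen by their transcripts, so these counts describe the set and are no test. With the 10 mixed barcodes left out, 31 genes were that much higher and 115 lower. Spi1, which encodes the myeloid master factor PU.1, had 645 CPM in members and 76.3 CPM in the others. Tyrobp, a signalling adaptor of myeloid and NK cells, had 2134 CPM in members, 452 CPM in the others and 2474 CPM in the Kupffer set. Spi1 had a UMI in 42 members (77.8%), against 2.05% of the endothelial barcodes.

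Ccr2, the receptor for CCL2 that brings monocytes out of the bone marrow, had 435 CPM in members (349 to 535), against 18.3 CPM in the others and 3.24 CPM in the Kupffer set. It had a UMI in 28 members (51.9%, at most 14 UMIs), 0.671% of Kupffer barcodes and 0.682% of endothelial barcodes. After each barcode was thinned to 1000 UMIs, with 9 shallower Kupffer barcodes left out, the shares were 27.8% of members and 0.692% of Kupffer barcodes. Crip1 had 3575 CPM in members, 461 CPM in the others and 727 CPM in the Kupffer set, and Lgals3, encoding galectin-3, 830.3, 81.7 and 431 CPM in the same order. The leukocyte actin-binding protein Lsp1 had 571 CPM in members and 102 CPM in the others, and the chemokine Ccl9 had 244 and 18.0 CPM.

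Cst3, encoding the protease inhibitor cystatin C, had 6042 CPM in members (5710 to 6388) and 920.0 CPM in the others. Plbd1 had 464 CPM in members and 37.7 CPM in the others, and Alox5ap, needed for leukotriene synthesis, 601 and 56.7 CPM. Gm2a, the GM2 ganglioside activator of lysosomes, had 948 CPM in members and 120.1 CPM in the others, and the lysosomal enzyme gene Naaa 288 and 12.6 CPM. Cd209a, a DC-SIGN homologue, had 303 CPM in members and 6.76 CPM in the others, but its UMIs came from 7 of the 54 members. Pid1, in contrast, was in 32 members at 376 CPM, against 19.5 CPM in the others. The members therefore did not carry these genes evenly.

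**Figure D1:**
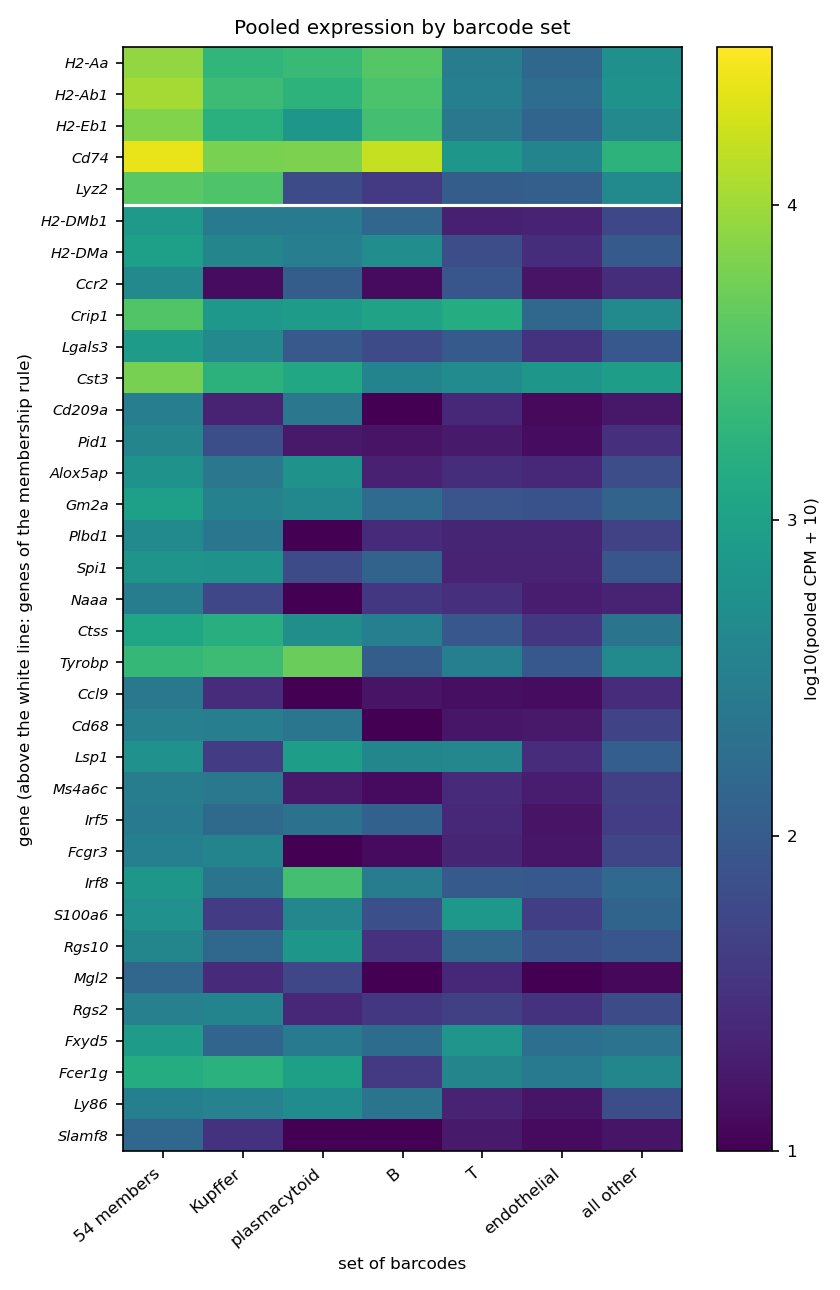
Pooled levels of the 5 rule genes and the 30 leading genes, as log10(CPM + 10), in the 54 members and in the Kupffer, plasmacytoid, B, T, endothelial and all other barcodes. The members' column is bright, meaning high, for Cd74, Cst3 and Crip1. Ccr2 is at 435 CPM in members and 3.24 CPM in the Kupffer set, and Tyrobp and Ctss are also high in the Kupffer set.

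Set against the Kupffer barcodes, members had 18 genes at least 4-fold higher (0.133% of those considered) and 63 at least 4-fold lower (0.465%). Of the 18, 3 were class II genes of the rule. Clec4f, Cd5l and Vsig4, which picked both sets, could not be higher in members. Tmsb10, an actin-sequestering thymosin, had 6052 CPM in members and 560.3 CPM in the Kupffer set. S100a6 had 581 CPM in members and 32.4 CPM in the Kupffer set, Vim 698 and 81.0 CPM, Fxyd5 825 and 128 CPM, and Coro1a, encoding the leukocyte actin regulator coronin 1A, 728 and 129.5 CPM. Of 23 genes of migration and the actin skeleton, 7 were at least 4-fold higher in members than in the Kupffer set, with a median log2 difference of 1.35. Against all other barcodes 3 of the 23 were (Lgals3, Lsp1 and Crip1).

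Iron and scavenger genes of Kupffer cells were low in members. Slc40a1, the iron exporter ferroportin, had 87.9 CPM in members and 1909 CPM in the Kupffer set. Hmox1, which breaks down heme, had 39.1 CPM in members and 1268 CPM in the Kupffer set, and Sdc3 142 and 2979 CPM. The hemoglobin scavenger receptor Cd163 and the folate receptor gene Folr2 had 1 UMI each in members, against 568 and 691 CPM in the Kupffer set. The phosphatidylserine receptor Timd4 and the scavenger receptor Marco, both known from Kupffer cells, had 0 UMIs in members, which allows up to 18.0 CPM, against 342 and 253 CPM in the Kupffer set. Of 14 Kupffer genes, 12 were at least 4-fold lower in members, with a median log2 difference of -3.35. The rule itself used 3 of the 14, so the list describes the choice. Of 18 macrophage genes, 0 were at least 4-fold higher in members than in the Kupffer set and 8 were at least 4-fold lower (median log2 difference -1.85). C1qa had 1050.1 CPM over all members and 4351 CPM in the Kupffer set, and C1qc 1075 and 4628 CPM.

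**Figure D2:**
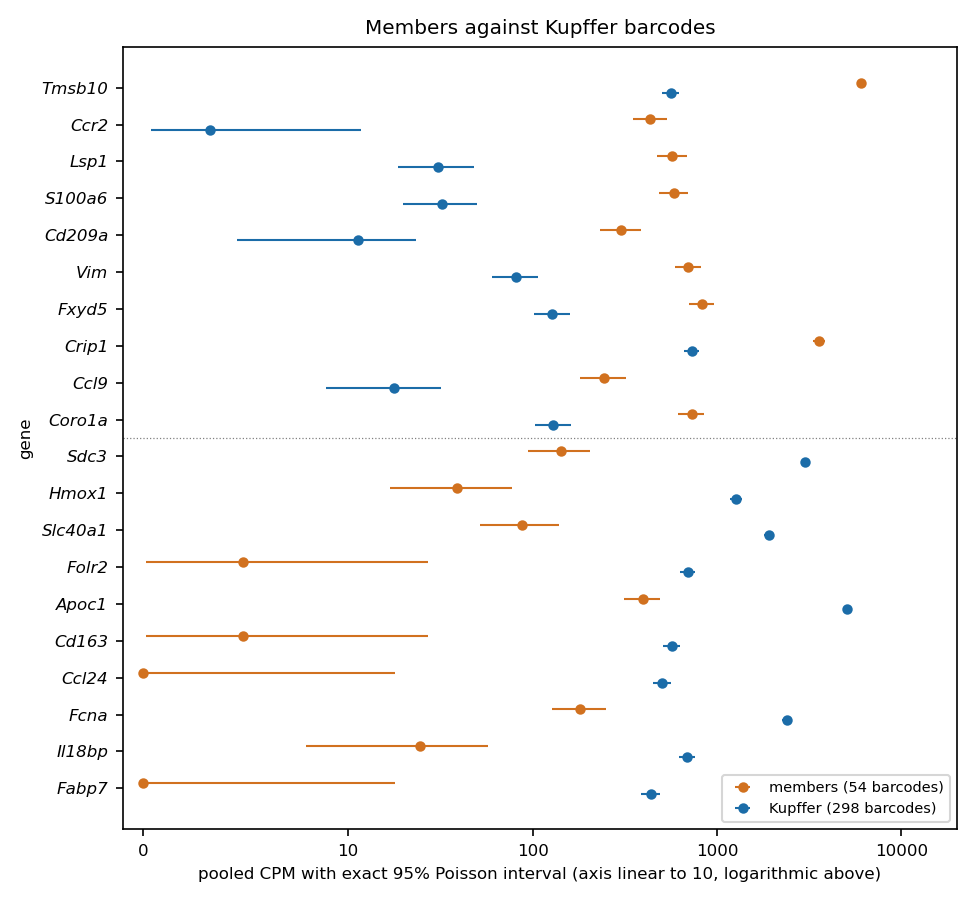
Pooled CPM on an axis linear to 10 and logarithmic above, with exact Poisson 95% intervals, of 20 genes in the 54 members and the 298 Kupffer barcodes. Slc40a1, Hmox1 and Sdc3 lie lower in members, and Ccr2, Lsp1 and S100a6 lie higher.

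Against the plasmacytoid set 45 genes were at least 4-fold higher in members (0.332%) and 55 lower (0.406%). The B set gave 66 higher (0.487%) and 50 lower (0.369%), the T set 55 (0.406%) and 40 (0.295%), and the endothelial set 68 (0.502%) and 132 (0.974%). By this measure the Kupffer set, with 81 genes past the limit in both directions together, had the fewest differences from members, and the endothelial set the most with 200. The sets differ in size and depth, so the counts are not on equal footing.

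Among themselves the 54 members fell into 5 groups by Leiden clustering, and the genes below are those that defined the groups. The largest, group 1 with 21 barcodes, was macrophage-like, with 6 macrophage markers among its 10 leading genes. C1qa, C1qb and C1qc, whose products form the recognition part of complement C1, had 3714, 5129 and 3733 CPM in this group, against 169, 260.0 and 195 CPM in the other members. In the Kupffer set they had 4351, 3930 and 4628 CPM. Per barcode the summed C1q count had a median of 25 UMIs in the group (3 to 71). Apoe had 25329 CPM in the group, against 2893 CPM in the other members.

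The macrophage-like group and the Kupffer set had different levels of several other macrophage genes. Folr2, Cd163, Timd4 and Marco had no UMI in it. The fractalkine receptor Cx3cr1 had 354 CPM in the group (a UMI in 11 of 21), against 13.0 CPM in the Kupffer set. Ccr2 had 511 CPM in the group, against 3.24 CPM in the Kupffer set, but unevenly, with a median of 0 UMIs per barcode and at most 9. Adgre1, which encodes F4/80, had 511 CPM in the group and 484 CPM in the Kupffer set. The group's median depth was 2087 UMIs, lower than the 3560 UMIs of all members. Its class II sum had a median of 165 UMIs (23 to 400), and Lyz2 a median of 16.

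Group 3, with 9 barcodes, was cDC1-like, with 4 cDC1 genes among the 10 leading genes and 11 of 15 among the 50 leading genes. Irf8, the transcription factor that cDC1 need, had 2061 CPM in this group, against 275 CPM in the other members, with a UMI in 8 of 9. Clec9a, a receptor for actin of dead cells, had 247 CPM in the group and 6.40 CPM in the other members, with a UMI in 7 of 9. Naaa had 845 and 115 CPM, and Ppt1 866 and 166 CPM in the same order. The chemokine receptor gene Xcr1 had a UMI in 2 of the 9. All 15 cDC1 genes had a UMI in the group, at a summed level of 18138 CPM. Ube2c, Top2a and Tppp3 also led the group, each with UMIs from 1 barcode, and the sum over 20 cell division genes ranged from 1 to 93 UMIs per barcode of the group (median 4). This group was the deepest, with a median of 5113 UMIs, and its class II sum had a median of 226 UMIs (17 to 338). Lyz2 was thin in it, at 1 to 5 UMIs per barcode and 536 CPM, against 104 CPM in the endothelial set.

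Group 2, with 12 barcodes, stayed unnamed, because 5 of its 10 leading genes were erythroid (Hba-a1, Hba-a2, Hbb-bs, Hbb-bt and Alas2), against 3 cDC2 genes. Nearly all hemoglobin UMIs of the group came from the 2 mixed barcodes with 669 and 3311. Cd209a had 1159 CPM in the group and 56.6 CPM in the other members, Clec10a, a galactose-type lectin, 459 and 6.29 CPM, and Klrd1 262 and 12.6 CPM, each with a UMI in 6 of the 12. The chemokine gene Ccl9 had 722 CPM in the group, against 107 CPM in the other members. Irf8 had no UMI in any of the 12. The median class II sum was 286 UMIs (12 to 583), and Crip1 reached 6628 CPM.

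The 7 members with many stellate UMIs formed group 4. Dcn, encoding the matrix proteoglycan decorin, had 9568 CPM in it, against 160.5 CPM in the other members, and Colec11 and Ecm1 had 2111 and 4030 CPM. Their class II sum had a median of 21 UMIs but ranged from 10 to 460. Among them, 1 barcode had 269 class II UMIs with 20 Irf8 UMIs, 1 had 175 class II UMIs with 52 C1q UMIs, and 1 had 460 class II UMIs with 22 UMIs of Cd209a, Clec10a and Mgl2. Those 3 had 148, 219 and 71 stellate UMIs beside them.

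The 5 barcodes of group 5 stayed unnamed too, though 4 hepatocyte genes stood among their 50 leading genes. Prdx5, a peroxiredoxin, had 3674 CPM in them and 253 CPM in the other members. Ly6c2, a surface marker of classical monocytes, had 735 and 22.03 CPM, and the monocyte gene Plac8 had 2939 CPM with a UMI in all 5. Ccr2 was in all 5 at 1210.3 CPM, but unevenly, with 1 to 14 UMIs per barcode (median 2). The count of 14 was in the mixed barcode with 94 hepatocyte UMIs. Lyz2 was at 11411 CPM, with a median of 32 UMIs (21 to 149). The classical monocyte list summed to 6743 CPM in these 5 barcodes, with 24 to 43 UMIs per barcode. It summed to 2931, 1422 and 1371 CPM in groups 2, 3 and 4, and to 1081 CPM in the macrophage-like group. In the plasmacytoid set it reached 6175 CPM, so this level was not particular to group 5. Ly6c2 also stands on the plasmacytoid list, which summed to 1297 CPM in group 5 and 15674 CPM in the plasmacytoid set. Rbp4 came from 1 barcode, the one with 94 hepatocyte UMIs.

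**Figure D3:**
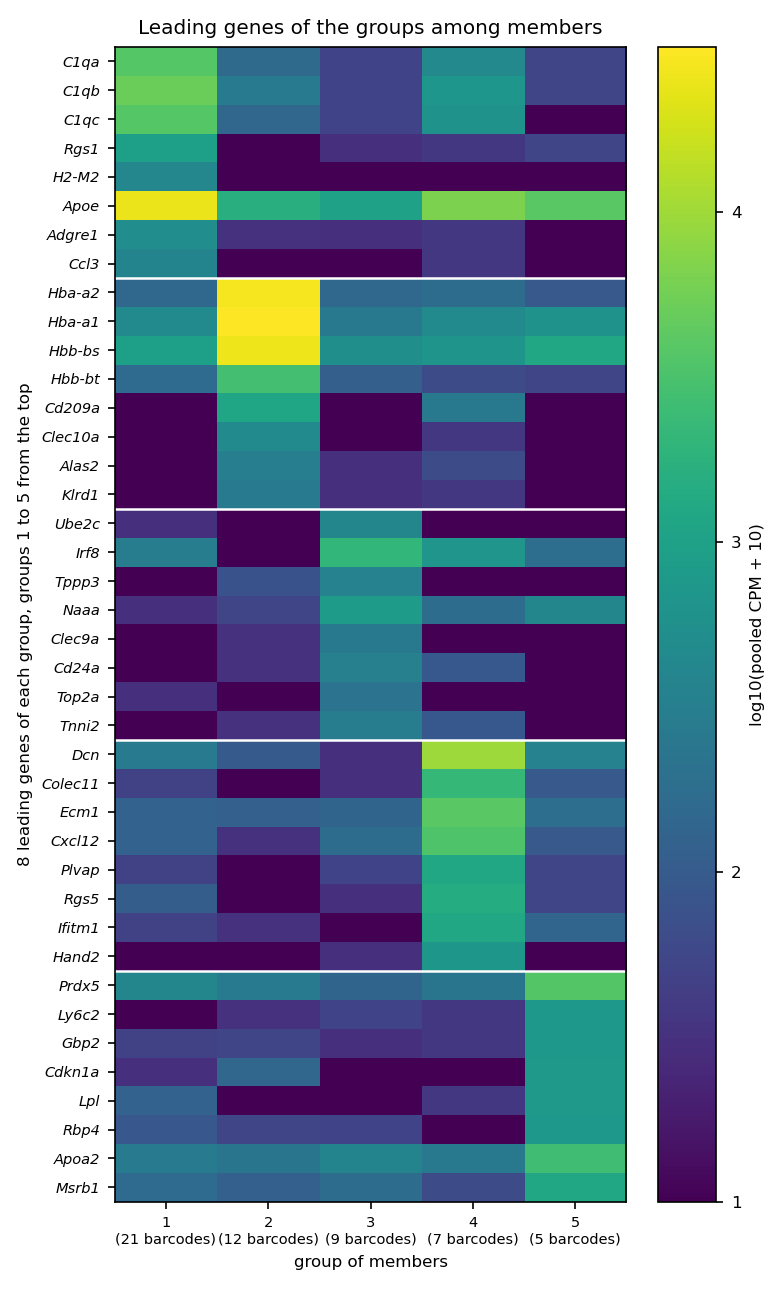
Pooled levels, as log10(CPM + 10), of the 8 leading genes of each of the 5 groups of members, shown in all 5 groups. C1qa, C1qb and C1qc stand out in group 1, Cd209a and Clec10a in group 2, Irf8, Naaa and Clec9a in group 3, Dcn in group 4 and Prdx5 in group 5.

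At the following limits, single barcodes passed for 1 of these gene sets or for none. With at least 10 UMIs of the C1q genes, at least 3 of Xcr1, Clec9a and Naaa, or at least 3 of Cd209a, Clec10a and Mgl2, 21, 8 and 8 members passed. Each of those 37 barcodes passed for 1 set, 0 passed for 2 or 3, and 17 passed for none. The C1q limit is the higher one: at a common limit of 3 UMIs, 2 members would pass for 2 sets, 1 with 4 C1q and 9 cDC1 UMIs and 1, a mixed barcode, with 3 C1q and 22 cDC2 UMIs. These limits were chosen after the values were seen, and the sets share genes with those that defined the groups. Irf8 reached 3 UMIs in 7 of the 8 barcodes with cDC1 genes. Plac8 reached 3 UMIs in 14 members, of which 0 had 10 C1q UMIs, 5 passed for the cDC1 genes and 6 were mixed barcodes. In the other 4754 barcodes, 453 (9.53%) passed for C1q, 7 (0.147%) for the cDC1 genes and 23 (0.484%) for the cDC2 genes. Irf8 reached 3 UMIs in 106 (2.23%) of those other barcodes, and Plac8 in 283 (5.95%).

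**Figure D4:**
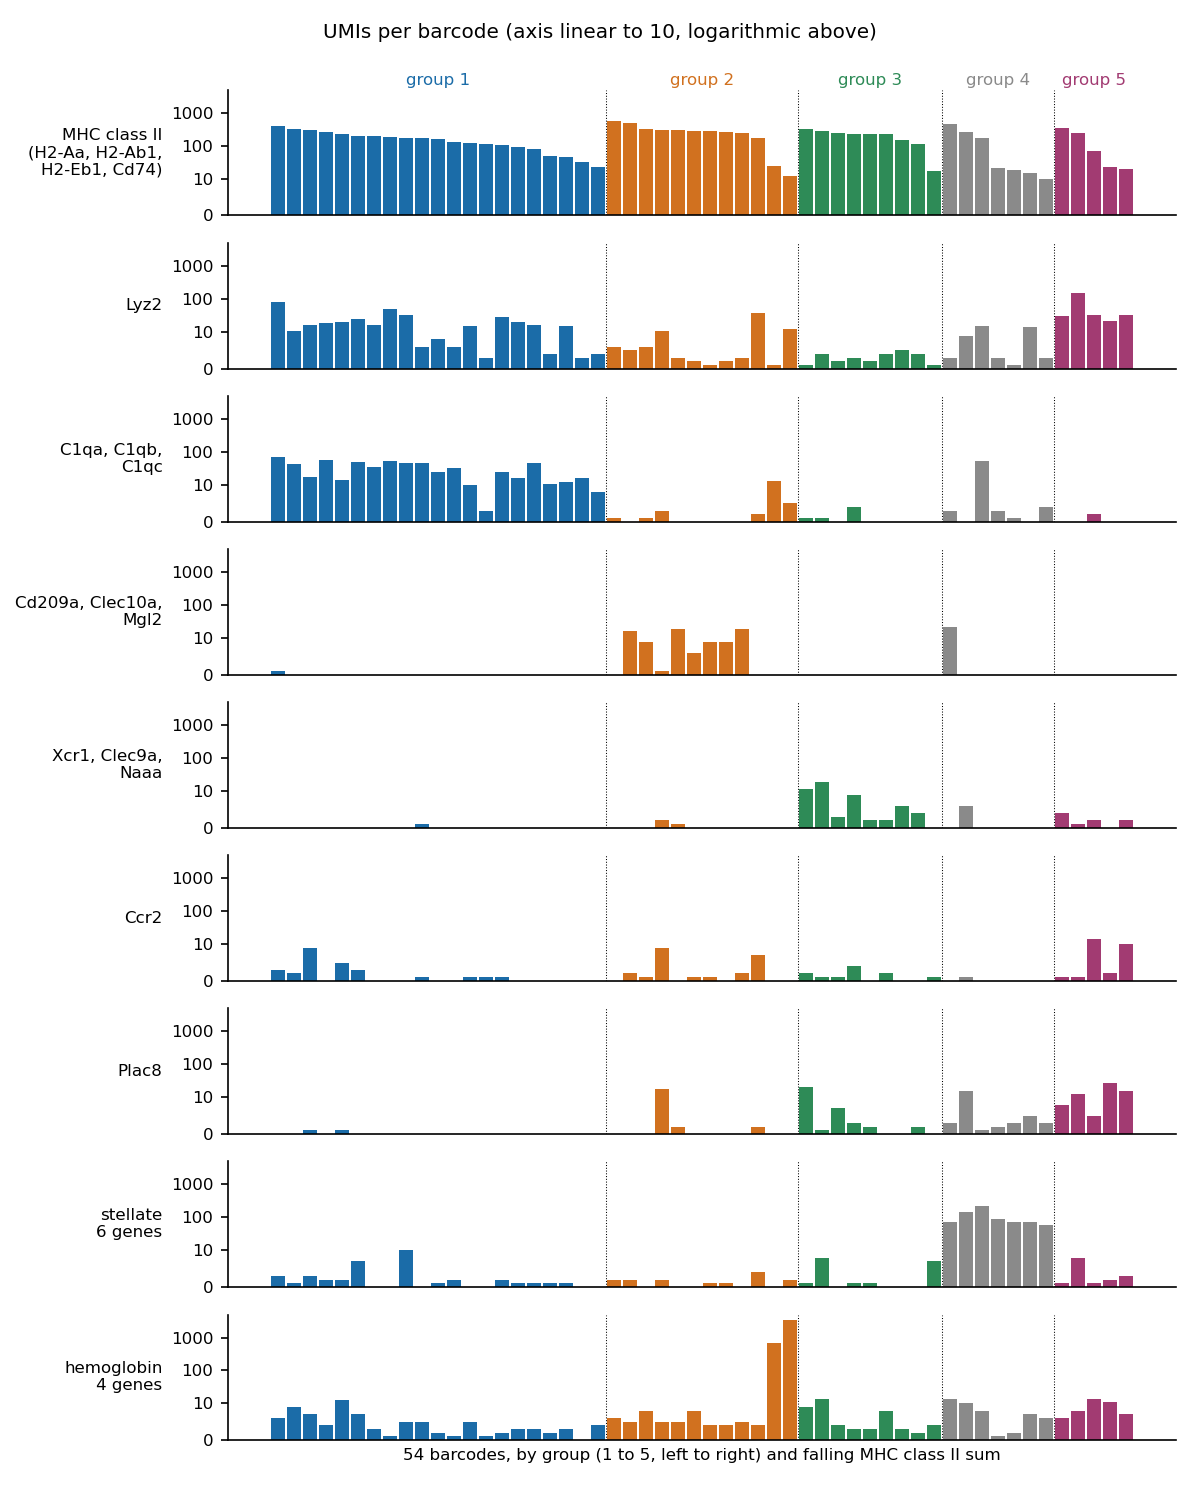
UMIs per barcode for each of the 54 members, on an axis linear to 10 and logarithmic above, ordered by group, for the class II sum, Lyz2, the C1q genes, the cDC1 and cDC2 gene sets and other counts. Groups 1 to 5 hold 21, 12, 9, 7 and 5 barcodes. C1q UMIs lie mostly in group 1, and the stellate UMIs of 58 to 219 lie in group 4.

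When the 44 members below the limits for stellate, hemoglobin and hepatocyte UMIs were clustered alone, 4 groups formed. No limit was set for lymphocyte genes, and a barcode of group 3 with 13 UMIs of the T list stayed in. The first had 19 barcodes and was led by C1q genes, and all 19 came from the macrophage-like group. All 9 barcodes of the cDC1-like group stayed together in a group of 9, among them 1 with no UMI of Irf8, Xcr1, Clec9a or Naaa. Another 9 were led by Cdkn1a, Ly6c2 and Prdx5, and 7 were led by Mgl2, Clec10a and Cd209a, at 596, 504 and 1009 CPM. With these 3 cDC2 genes the group of 7 met the limits for the name cDC2-like, but each gene had a UMI in only 3 of the 7. The barcodes of the unnamed group of 12 were divided between these last groups (6 and 4), and 2 of the macrophage-like barcodes moved to the group of 7. Those of group 5 were divided between the same groups (3 and 1). Over the 44, Ccr2 had 474 CPM with a UMI in 26, and H2-Aa had 9771 CPM.

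Lists of marker genes were read over all members. Of 15 cDC1 genes, 2 were at least 4-fold higher in members than in the other barcodes (Cst3 and Naaa) with a median log2 difference of 1.22. Of 14 cDC2 genes considered, 1 was (Cd209a), with a median of 0.74, and Clec4a4 and Il1r2 had no UMI. The list of dendritic cell genes in general had 1 of 12 (Plbd1) with a median of 0.33, the integrin Itgax standing at 63.5 CPM in members and 6.31 CPM in the others. Zbtb46, a factor of conventional dendritic cells that endothelium also expresses, had 24.4 CPM in members, 47.4 CPM in the others and 84.1 CPM in the endothelial set. Of 13 genes of mature dendritic cells considered, 0 passed in either direction, and the lymph node homing receptor Ccr7 had 1 UMI.

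Among macrophage genes, 1 of 18 was at least 4-fold higher in members than in the other barcodes and 1 lower (median 0.60). Of 6 considered genes of capsule macrophages 1 was higher, Ccr2 (median 1.32). Of 12 considered genes of classical monocytes, 1 was higher, also Ccr2 (median 0.28), and Chil3 and F13a1 had no UMI. Of 14 genes of nonclassical monocytes, 0 were higher and 1 lower (median 0.16). The neutrophil list summed to 0 to 8 UMIs per member, with 8 of its 13 genes at 0. Among 8 basophil and mast cell genes 7 were at 0, and among 11 NK and ILC genes 8 were at 0, with at most 7 UMIs in a barcode. The 14 plasmacytoid genes summed to 611 CPM in members and 15674 CPM in the plasmacytoid set, with 4 at 0, among them Siglech by the rule. The B list had 6 of 12 at 0: Cd79a and Cd79b by the rule, and Ms4a1, Ebf1, Pax5 and Fcmr besides. The T list, with Cd3e at 0 by the rule, summed to at most 15 UMIs in a barcode. Hepatocyte genes were at 3126 CPM in members and 20014 CPM in the others, which include the hepatocytes themselves. The Kupffer, endothelial, T, B and plasmacytoid sets had 3800, 3734, 4143, 4692 and 1868 CPM of them.

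Chemokine genes and their receptors had 2 of 23 at least 4-fold higher in members than in the other barcodes (Ccl9 and Ccr2), and 0 lower (median 0.54). Cx3cr1 had 117 CPM in members and 4.36 CPM in the others, with a UMI in 16 members. Of 23 considered genes of cytokines and their receptors, 0 passed in either direction (median 0.40), with Il1b at 117 and 18.8 CPM and the GM-CSF receptor gene Csf2ra at 171 and 22.7 CPM, members before the others. Il6, Il10, Il12a, Il12b and Il23a had no UMI in members. Of 22 considered genes of pattern recognition 0 passed (median 0.17), and Tlr5 and Tlr9 were at 0. Among myeloid transcription factors 1 of 25 was higher, Spi1, and 1 lower. Cell division genes had 0 of 20 past the limit, with a sum of 0 to 93 UMIs per member (median 2), and early response genes, which tissue digestion is known to induce, had 0 of 22 (median 0.20).

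P2ry14, the receptor the study is about, was sparse in members. It had 11 UMIs in 9 of 54 barcodes (16.7%, exact binomial 95% interval 7.92 to 29.3%), against 0.633% of endothelial barcodes. In the Kupffer set 4.36% had a UMI, and after thinning to 1000 UMIs the shares were 3.70% of members and 3.81% of Kupffer barcodes. The pooled level was 53.7 CPM (26.8 to 96.1) in members, 16.0 CPM in the other barcodes, 22.7 CPM in the Kupffer set and 229 CPM in the plasmacytoid set. Of the 9 barcodes, 4 were cDC1-like, and 1 was a mixed barcode with 219 stellate UMIs. Without the mixed barcodes, 8 of 44 members had a UMI, at 64.0 CPM. P2ry6, the receptor for UDP, had 156 CPM in members and 12.5 CPM in the others, with a UMI in 21 members. Of 13 considered purinergic receptors and nucleotidases, 0 passed the 4-fold limit in either direction (median 0.07).

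The bulk libraries hold these genes as RNA of a mixture, in TPM (transcripts scaled to a fixed total, a level per length). There, fewer cells of a type and less RNA per cell cannot be told apart. In stellate cultures, the class II genes and Lyz2 were near the floor in every library. H2-Aa had 2.85, 1.40 and 2.12 TPM with UDP-glucose and 0.513, 1.86 and 1.48 TPM in controls, and Cd74 had 3.76, 2.24 and 3.88 TPM with UDP-glucose and 1.71, 3.08 and 3.56 TPM in controls. For both genes the groups overlap. On log2(TPM + 1), limma gave Cd74 a change of 0.19 (SE 0.26, adjusted p = 0.86). Lyz2 averaged 0.913 ± 0.466 TPM with UDP-glucose and 1.11 ± 0.933 TPM in controls (SD, n = 3 each).

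Of the 30 leading genes, 14 were high enough to test in the cultures, of which 0 rose and 1 fell with UDP-glucose. Across all 12161 genes tested, 0.428% rose and 0.181% fell, or 0.609% in either direction. The gene that fell was Cd68, a lysosomal glycoprotein of macrophages, with 46.6, 51.5 and 47.1 TPM with UDP-glucose and 85.2, 68.9 and 78.8 TPM in controls. The groups do not overlap, and limma put the log2 difference at -0.67 (SE 0.09, adjusted p = 0.0284). The call was lost without the filter on low values, after rescaling, and in 5 of 6 fits that left out 1 library. Cst3 averaged 2233 ± 23.6 TPM with UDP-glucose and 2117 ± 134 TPM in controls (adjusted p = 0.737), so this gene of the members was also abundant in cultured stellate cells.

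In quiescent stellate cells and whole liver, the class II genes were present at like levels. H2-Aa had 17.9, 6.29, 10.4 and 14.1 TPM in quiescent cells and 7.33, 22.8 and 14.1 TPM in liver. The groups overlap, and limma put the log2 difference at -0.22 (SE 0.37, adjusted p = 0.575). Cd74 had 44.0, 18.2, 34.7 and 43.4 TPM in quiescent cells and 13.4, 35.6 and 21.4 TPM in liver (0.59, SE 0.34, adjusted p = 0.122). Neither H2-Ab1 nor H2-Eb1 passed. These 2 groups come from separate deposited tables, so group and table cannot be told apart. Of all 12643 genes tested, 67.0% were higher in quiescent cells and 10.9% lower (77.9% together), past a log2 change of 1, with a median log2 difference of 1.62. After a rescaling that brings that median to 0.04, H2-Aa, H2-Ab1, H2-Eb1 and Cd74 stood at -2.00, -1.79, -2.01 and -1.28 and passed as lower in quiescent cells.

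Of the 30 leading genes, 26 were tested in this comparison, 10 were higher in quiescent cells and 3 lower (median 0.64). After rescaling 8 of the 26 were higher and 11 lower (median -0.80), beside 3373 and 3299 of all 12643 genes. The sign of the list's median thus turned with the scaling, and under both scalings it lay below the median of all genes (1.62 before and 0.04 after). Irf8 had 66.4, 92.9, 57.01 and 74.3 TPM in quiescent cells and 0.939, 1.41 and 1.26 TPM in liver. Cst3 had 2034, 2063, 2374 and 1953 TPM in quiescent cells and 94.3, 130.5 and 135 TPM in liver. Neither gene overlaps between the groups, and their log2 fold changes were 5.05 (SE 0.17, adjusted p = 1.81e-10) and 4.14 (SE 0.15, adjusted p = 3.56e-10) by limma. Cd68 and Naaa were also higher, at 3.37 and 4.16.

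Ccl9, Plbd1 and Pid1 were lower in quiescent cells. Ccl9 averaged 0.180 ± 0.163 TPM in the 4 quiescent libraries and 32.5 ± 5.23 TPM in the 3 liver libraries (SD), and limma put the difference at -4.82 on the log2 scale (SE 0.16, adjusted p = 1.69e-10). Plbd1 changed by -1.95 and Pid1 by -2.84. Lyz2 had 26.6, 17.4, 29.9 and 27.3 TPM in quiescent cells and 8.36, 16.1 and 10.9 TPM in liver (1.06, SE 0.22, adjusted p = 0.000894), a call lost without quiescent replicate 3 or without liver replicate 1 and turned to -0.77 by rescaling. Ctss, at 1.01 (adjusted p = 0.00734), turned to -0.75. P2ry14 itself averaged 132 ± 4.78 TPM in quiescent cells and 0.341 ± 0.166 TPM in liver. Genes that were high in the members, such as Irf8 and Cst3, were thus also abundant in sorted stellate cells, while Ccr2 stayed at or below 0.420 TPM in every quiescent and liver library and Cd209a at or below 0.258 TPM.

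**Figure D5:**
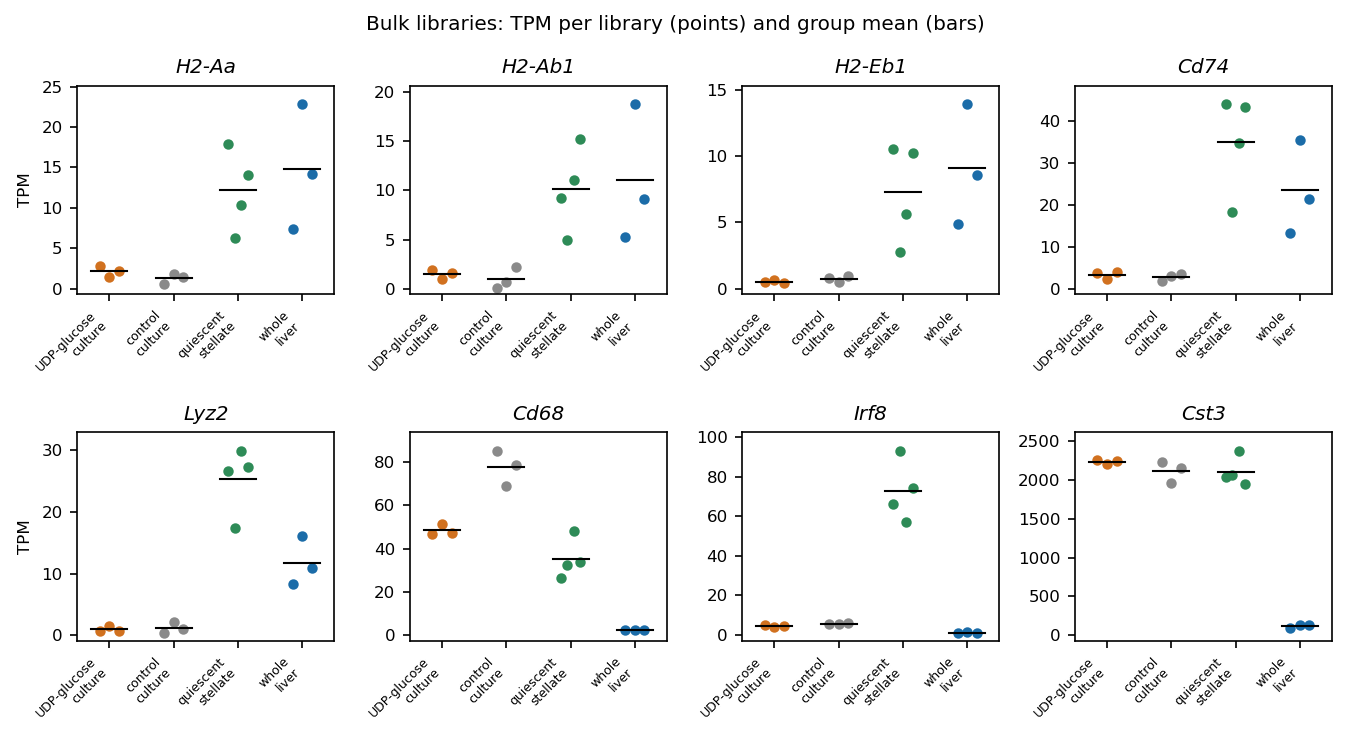
TPM per library of H2-Aa, H2-Ab1, H2-Eb1, Cd74, Lyz2, Cd68, Irf8 and Cst3 in UDP-glucose cultures, control cultures, quiescent stellate cells and whole liver, with a line at each group's mean. H2-Aa lies between 0.513 and 2.85 TPM in the cultures and between 6.29 and 22.8 TPM in quiescent cells and liver, and the Cd68 values of UDP-glucose cultures lie below those of controls.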

How the data were processed

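Single-cell UMI counts were deposited by the authors as a matrix of 28692 genes by 5063 barcodes. Per the submitters' processing notes, Cell Ranger (version not given in the sources used here) and bcl2fastq 2.19 were used. The bulk TPM values were deposited by the authors in tables of 35197 gene rows. The same notes name kallisto 0.44.0, DESeq2 and the builds GRCm38 and mm10, with no role or order. How deeply the bulk libraries were sequenced cannot be read from TPM and is unknown.

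UMIs of 67 repeated symbols were summed. Members and comparison sets were picked by UMI limits, pooled, scaled to CPM and compared after 50 CPM was added, over genes with at least 10 UMIs. A gene was counted when the fold reached 4. Intervals are exact 95% Poisson or Clopper-Pearson intervals (scipy 1.17.1), and a count of 0 is given with a limit from the Poisson interval. Shares were also computed after thinning each barcode to 1000 UMIs. Clustering used scanpy 1.11.5 with 20 principal components of the 2000 most variable genes, 10 neighbours and the Leiden method at resolution 1. A group could be named where at least 3 markers stood among its 50 leading genes and no other type had more of the first 10. Only the macrophage-like and cDC1-like names were given. Group 2 also met these limits with 5 erythroid genes, group 4 with 9 stellate genes and group 5 with 4 hepatocyte genes, and none was named after them. Without the mixed barcodes, the group led by Cdkn1a met them with 3 genes of mature dendritic cells and was left unnamed. Python 3.11.15 and R 4.3.3 were used.

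Bulk comparisons were fitted on log2(TPM + 1) with limma 3.58.1 and Benjamini-Hochberg adjustment at 0.05 over all genes tested (those averaging 1 TPM or more), with a log2 change of at least 1 in addition for quiescent cells against liver. The 26 rows that name no gene were dropped, with no more than 0.319% of a library's TPM.

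The genes named are the rule genes, the 30 largest folds over the other barcodes (at least 100 CPM and a UMI in 10% of members), the 10 largest folds each way against the Kupffer set, the most abundant genes of each list, the 8 leading genes of each group, and P2ry14. Other genes were named after their values were seen. The members, lists and limits were chosen with earlier results of these data known. Alternatives changed the membership limits, the CPM added, the weighting, the thinning depth, the clustering, the motif spacing and, in bulk, the pseudocount, filter, scaling and each library in turn.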

Additional observations from a re-analysis of the deposited data

Results flagged for a closer look

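Of 36 genes examined in the 4 quiescent stellate cell libraries, 5 had a library far from the other 3. The measure is the gap between the farthest library and its nearest neighbour as a share of the whole range, and chance gives such a gap in about 1 of 20 groups. That rate does not apply to a gene listed above 0 in only 1 library, whose share is always 1, as for Cd209a and Mgl2. Cd209a had a share of 1, with 0.258 TPM in 1 library and 0 in the other 3, and Mgl2 also had 1, with 0.164 TPM in 1 library and 0 in the others. Rgs10 had a share of 0.973, with 12.6 TPM in 1 library and 10.1 TPM in each of the other 3. Fxyd5 had a share of 0.898, with 78.9 TPM against 64.8 to 66.3 TPM. Ly86 had a share of 0.964, with 1.46 TPM in the lowest library against 2.41 to 2.44 TPM. The library that stood apart was quiescent replicate 3 for Rgs10, Fxyd5 and Mgl2, replicate 1 for Cd209a and replicate 2 for Ly86. Cultures and whole liver, with 3 libraries a group, were not examined this way.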

How the results depend on the processing

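Membership stood at 54 barcodes and reached 75 when Lyz2 was not required. It stayed between 41 and 59 under the other membership limits, and was 44 without the mixed barcodes, an alternative added after seeing the data. Counts of genes past 4-fold depend on the CPM added. Against all other barcodes, adding 10 CPM gave 119 higher and 408 lower, adding 100 CPM gave 36 lower, and weighting barcodes equally gave 35 higher, where the stated settings gave 23 and 78. Counts in both directions with 10 and 100 CPM added were 347 and 47 against the Kupffer set, 563 and 49 against the plasmacytoid set, 522 and 54 against the B set, 430 and 56 against the T set, and 847 and 95 against the endothelial set, where 50 CPM gave 81, 100, 116, 95 and 200. The median share of members with a UMI over the 30 genes was 31.5% at 1000 UMIs and 18.5% at 500. Resolution 0.5 gave 3 groups in place of 5, and a motif spacing of 10 to 100 bases gave 399 windows in place of 165. With UDP-glucose, 52 genes rose and 22 fell. Without the filter 24 rose and 6 fell, rescaling left 10 that fell, and leaving out 1 library gave 17 to 46 higher and 0 to 18 lower, 17 to 25 and 0 to 5 over the fits that moved by more than 1.5 times. For quiescent cells against liver, rescaling gave 3373 higher and 3299 lower in place of 8466 and 1381 and turned Lyz2 to -0.77 and Ctss to -0.75, since it removes the median shift. Leaving out 1 library gave 8264 to 8666 higher and 1308 to 1420 lower. The cause of the other changes was not tested. No paired analysis was possible because only the whole-liver titles carry replicate numbers and the groups compared share none. With 1 single-cell library and 54 members, genes with a few UMIs have wide counting intervals, and the spread between animals is not measured.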

Other observations

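Among the 44 members without the mixed barcodes, 1 of the 4 groups, with 9 barcodes, was led by Cdkn1a, Ly6c2 and Prdx5. Of its 10 leading genes, 5 were Fdps, Cyp51, Pmvk, Idi1 and Sqle, each an enzyme gene of sterol synthesis. Fdps had 591 CPM with a UMI in 7 of 9, against 50 CPM in the remaining 35. Cyp51 had 269 CPM in 6 of the 9 and no UMI in the others, and Sqle had 215 CPM in 5 of the 9 and no UMI in the others. Pmvk and Idi1 had 322 and 269 CPM in the group. These genes were noticed in the values that defined the group and belong to no list chosen for them, so they are a description with no test.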
